A study of Phaseolus coccineus with 4 samples.

Results

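The photosynthesis genes PSAD, CAB3, ELIP and FTRC were followed in globular embryos of Phaseolus coccineus, the scarlet runner bean, through 12 probe sets of a soybean array. The array holds 8677 soybean probe sets with a single gene symbol, which stand for 6029 genes. The members were taken by symbol: every probe set annotated to PSAD, ELIP, FTRC or a gene whose symbol begins with CAB and a digit, of which CAB3 was the only match. These genes were selected on the difference between embryo proper and suspensor signals on these same arrays, so that difference is given below as a description, without p-values for these genes. PSAD (gene identifier 100101915) and CAB3 (547862) have 5 probe sets each, and ELIP (547896) and FTRC (547937) have 1 each.

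Embryo proper was represented by 2 arrays and suspensor by 2 arrays, all from the cultivar Hammond's Dwarf Red Flower, fixed 6 days after hand pollination; the plants had days of 16 h light and 8 h darkness at 22 °C. The embryo proper is the region that becomes the plant; a suspensor anchors it in the seed and feeds it. Both regions were cut with a laser from paraffin sections of 6 µm, and the extracted RNA was amplified before it was labelled. The labels call the 2 samples of a region biological replicates but do not say which plants they came from, so the spread between them may be partly technical. Fewer cells that express a gene and less of its RNA per cell cannot be told apart in such samples.

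In photosynthesis, light is absorbed by chlorophyll bound to antenna proteins and passed to 2 photosystems, which drive electrons along the thylakoid membrane to ferredoxin. PSAD encodes the subunit of photosystem I at which ferredoxin docks, and CAB3 encodes a chlorophyll a/b-binding antenna protein. ELIP encodes an early light-induced protein, a relative of the antenna proteins known for protecting plastids while thylakoids are being built or light is excessive. FTRC encodes the catalytic subunit of ferredoxin-thioredoxin reductase, which uses reduced ferredoxin to switch chloroplast enzymes through thioredoxin.

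The arrays differed by region in more than these genes. Of 37593 soybean probe sets, embryo proper arrays 1 and 2 had 8742 and 8634 above background, against 8180 and 7328 for suspensor arrays 1 and 2; the background level, 872.7 to 1034 signal units across arrays, is the 95th percentile of the Phytophthora and nematode probe sets of an array. RNA input was 60 and 75 ng for embryo proper, against 106 and 137 ng for suspensor, and 18 hybridisation spikes had median signals of 46706 and 58957 with embryo proper RNA, against 97327 and 159448 with suspensor RNA. Actin probe sets, read for RNA integrity or 3′-biased amplification, also differed. The 3′ one read 13961 and 5246 in embryo proper, against 2766 and 4375 in suspensor. The middle one read 10732 and 10806 in embryo proper, against 5207 and 2895 in suspensor. The 5′ one used here, AFFX-r2-Gma-actin-5_at, cleared background on suspensor array 2 alone, where the 3′ to 5′ ratio was 3.6. The ratio was at least 15.8 and 6.01 for embryo proper and at least 2.99 for suspensor array 1. Both embryo proper ratios thus lay above that of suspensor array 2, while suspensor array 1, with only a lower bound, cannot be placed. Another 5′ actin probe set, AFFX-r2-Gma-actin-5_x_at, read 490.4 and 318 in embryo proper, against 656 and 82.3 in suspensor. It was below background on every array, so it gives no measured ratio, for suspensor array 2 either. The part of these differences in the results below was not tested. As a check of the labelled regions, the suspensor markers fixed for this work matched GA20OX3 alone, an enzyme of gibberellin synthesis, which was below background on all 4 arrays, and the embryo proper markers matched no symbol. The seed coat and vascular markers, 9 genes with 12 probe sets, were below background on every array except for 1 probe set on 1 suspensor array, and the endosperm list matched no symbol. Placeholder symbols, which begin with LOC, could match none of these marker lists.

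By 1 of the 2 tested PSAD probe sets and 2 of the 3 of CAB3, both embryo proper signals were above both suspensor signals. ELIP and FTRC had higher signals on both suspensor arrays. Over all tested probe sets, 33.4% did not overlap with embryo proper higher and 19.8% with suspensor higher. Of the 12 probe sets, 7 were above background on at least 2 arrays and entered the fit, and the other 5, all of PSAD or CAB3, were below background on every array. Of the 8972 probe sets in the limma fit, 1.86% were called higher in embryo proper and 0.892% higher in suspensor at an adjusted p under 0.05, or 167 and 80 probe sets; after quantile normalization the split was 237 and 195. Among the 7 tested probe sets of these genes, 2 were called higher in embryo proper and 0 higher in suspensor. Nothing is read from these counts, because the genes were chosen on this contrast. The median difference, embryo proper minus suspensor, was 0.50 on the log2 scale over the 7 and 0.18 over all tested probe sets.

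**Figure D1:**
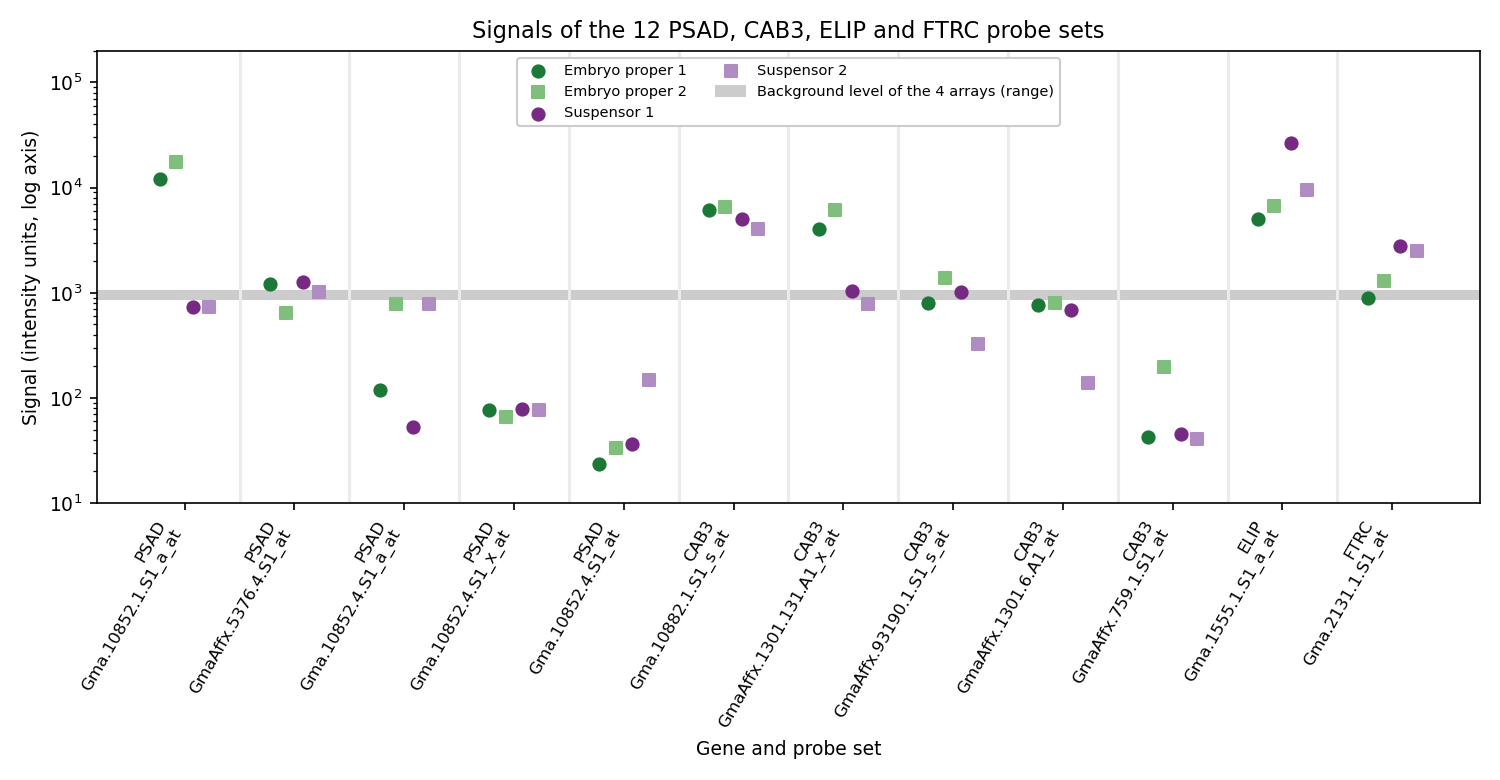
Signals of the 12 probe sets on each array, on a log axis, with embryo proper arrays in green and suspensor arrays in purple; the grey band spans the background levels of the 4 arrays. PSAD Gma.10852.1.S1_a_at stood at 11947 and 17685 on its embryo proper arrays, against values under the band in suspensor, and ELIP and FTRC were higher on both suspensor arrays.

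The photosystem I subunit gave the widest difference. PSAD, by probe set Gma.10852.1.S1_a_at, had signals of 11947 and 17685 on the embryo proper arrays, against 733 and 734 on the suspensor arrays. The embryo proper signals were 13.56 and 20.26 times the background level of their arrays, and the suspensor signals were 0.79 and 0.71 times theirs, so the regions did not overlap. The means were 14816 ± 4057 in embryo proper and 734 ± 0.707 in suspensor (SD, n = 2 each). Because both suspensor arrays were below background, the fold is a bound: at least 14.6-fold higher in embryo proper, against a measured log2 difference of 4.28. The suspensor value is not a measured level of the transcript, and its close replicates lie where signals are mostly background. It was among the 2.41% of soybean probe sets that both embryo proper arrays, but no suspensor array, held above background. The log2 difference was 4.0 without embryo proper replicate 2 and 4.56 without embryo proper replicate 1.

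The other PSAD probe sets did not show that pattern. GmaAffx.5376.4.S1_at had signals of 1204 and 638 in embryo proper, against 1256 and 1025 in suspensor. Both regions had 1 array above background and 1 below it, and the regions overlapped. The log2 difference of -0.37 had array-by-array values between -0.96 and 0.23, which lie apart from the 4.0 to 4.56 of the first probe set; without embryo proper replicate 2 it was 0.08. The remaining 3 probe sets, Gma.10852.4.S1_a_at, Gma.10852.4.S1_x_at and Gma.10852.4.S1_at, were below background on all arrays, at most at 0.89 times the background level in embryo proper and 0.76 times in suspensor. They have the same identifier stem, the part before the second dot, as the bright probe set, and Gma.10852.4.S1_a_at reached 781 on embryo proper array 2 and 786 on suspensor array 2. The 2 further probe sets of that stem, annotated to the placeholder genes LOC100800992 and LOC100786069, were also below background on all 4 arrays. The embryo proper difference of PSAD thus rests on 1 of 5 probe sets. Its identifier ends in _a_at, a suffix for probes shared between transcripts. Probes were made for soybean, and whether the dim probe sets mismatch the bean transcript was not tested.

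The tested probe sets of the antenna gene leaned towards embryo proper by differing amounts, and in 1 of the 3 the regions overlapped. CAB3, by probe set GmaAffx.1301.131.A1_x_at, had signals of 4049 and 6168 in embryo proper, against 1047 and 788 in suspensor. The regions did not overlap, and the second suspensor array was below background while the first stood at 1.13 times its background level. The means were 5109 ± 1498 in embryo proper and 917 ± 183 in suspensor (SD, n = 2 each), a 5.42-fold difference on the log2(signal + 16) scale, which understates changes of dim probe sets. Because 1 of the 2 suspensor arrays did not measure it, the fold was also taken with that array at its weakest soybean signal above background, which gave 4.75-fold. The fold was 6.69 without embryo proper replicate 1 and 4.4 without embryo proper replicate 2.

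The brightest CAB3 probe set, Gma.10882.1.S1_s_at, had signals of 6163 and 6561 in embryo proper, against 4982 and 4023 in suspensor. It was the only CAB3 probe set above background on all 4 arrays, at 6.99 and 7.52 times background in embryo proper, against 5.39 and 3.89 times in suspensor. The regions did not overlap, and the log2 difference was 0.50. This probe set was well above background in suspensor, where the x_at probe set was near or below it. GmaAffx.93190.1.S1_s_at had signals of 794 and 1373 in embryo proper, against 1010 and 324 in suspensor, with 1 array of each region above background and overlapping regions. Its log2 difference of 0.85 was 0.05 without suspensor replicate 2 and 1.64 without suspensor replicate 1.

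The last 2 CAB3 probe sets were below background on every array. GmaAffx.1301.6.A1_at had signals of 768 and 795 in embryo proper, against 679 and 140 in suspensor, and GmaAffx.759.1.S1_at did not exceed 198. All 3 tested CAB3 probe sets had a positive difference, as did 59.2% of all tested probe sets. The 3 differences were 0.50, 2.44 and 0.85 on the log2 scale and spanned array-by-array values of -0.34 to 2.94. All 3 probe sets have suffixes, _s_at or _x_at, that mark probes shared between transcripts. Antenna proteins form a large family of similar genes, so signals named CAB3 may come from several of its members. The probe sets of CAB3 that lack such a suffix gave no signal above background.

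**Figure D2:**
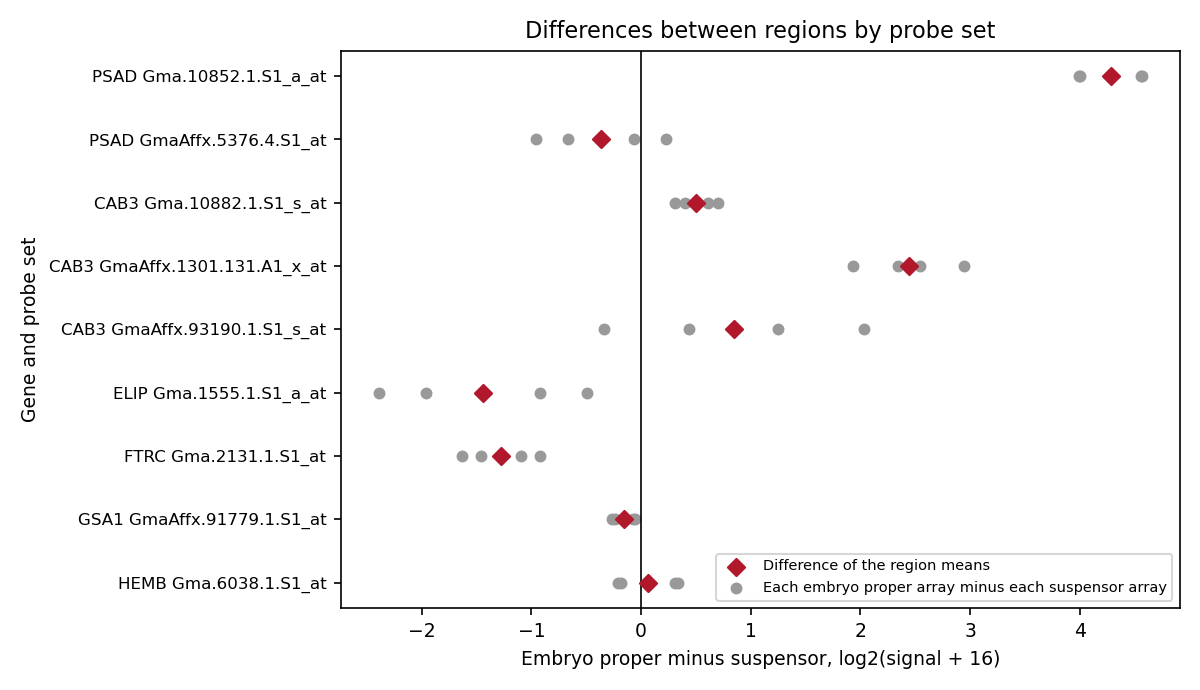
Difference between regions for the 7 tested probe sets and for GSA1 and HEMB, as embryo proper minus suspensor on the log2(signal + 16) scale; red diamonds are differences of region means and grey points are the 4 differences between single arrays. The 2 PSAD probe sets stand at 4.28 and -0.37, the CAB3 probe sets between 0.50 and 2.44, and ELIP and FTRC at -1.44 and -1.28.

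The identifier stem of the called CAB3 probe set, GmaAffx.1301, is shared by 78 probe sets, which was looked at after its values were seen. Besides the 2 of CAB3 it holds 76 others, of which 24 were tested. Of these, 9 had a higher signal in embryo proper and 15 in suspensor, 0 were called by limma in either direction, and the median log2 difference was -0.24. The range ran from -4.08 to 2.51. The probe set at the top of that range, GmaAffx.1301.20.S1_at, is unnamed here and had signals of 3464 and 2292 in embryo proper, against 336 and 692 in suspensor, both below background, for a bound of at least 2.85-fold. Among the tested others, 17 are unnamed here, and the named ones carry different symbols, such as LOC100305762 and LOC100815844. By annotation the stem thus holds more than 1 gene, and the differences of the others are not read as differences of CAB3.

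**Figure D3:**
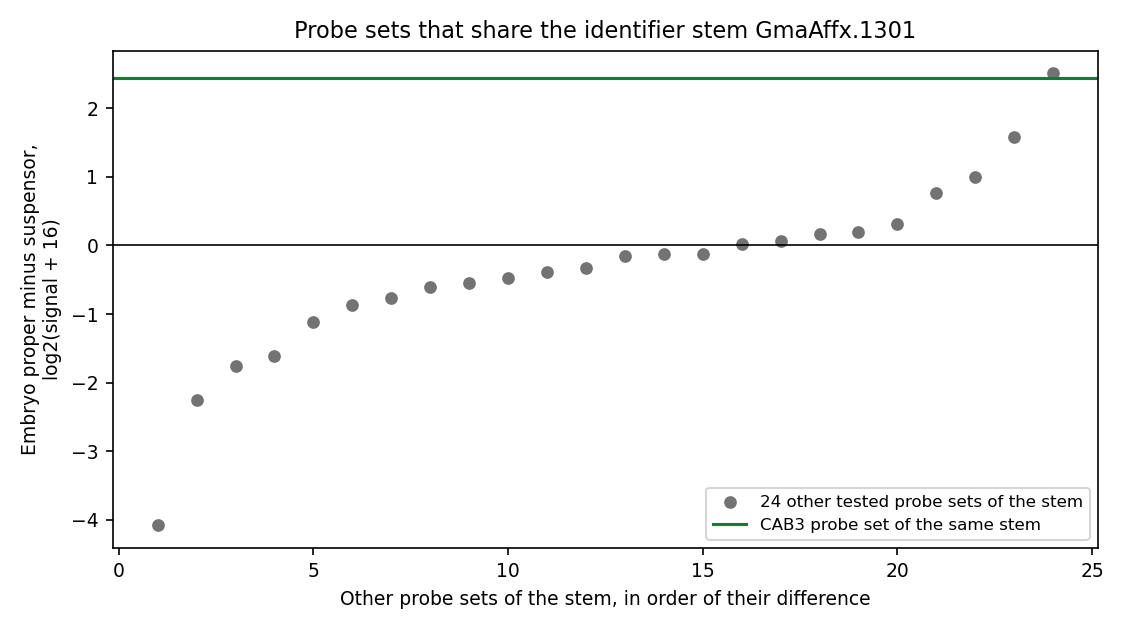
Differences of the 24 other tested probe sets with the stem GmaAffx.1301, in order of size, as embryo proper minus suspensor on the log2(signal + 16) scale; the green line marks the CAB3 probe set at 2.44. The grey points run from -4.08 to 2.51, and 1 of them lies above the line.

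ELIP, the light-stress protein, had the opposite direction to the antenna gene. Its single probe set, Gma.1555.1.S1_a_at, had signals of 5009 and 6751 in embryo proper, against 26299.8 and 9491 in suspensor. All 4 arrays were above background, at 5.68 and 7.74 times the level in embryo proper, against 28.43 and 9.18 times in suspensor, and the regions did not overlap. The means were 5880.1 ± 1232 in embryo proper and 17895 ± 11886 in suspensor (SD, n = 2 each), 2.71-fold higher in suspensor on the log2(signal + 16) scale. The suspensor arrays stood 1.47 apart on the log2 scale, about as far as the difference between regions, -1.44, and only 13.3% of tested probe sets had a wider gap between suspensor arrays. Without suspensor replicate 1 the fold was 1.63 and without suspensor replicate 2 it was 4.51.

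The other probe set with the stem of ELIP carries the symbol CPX and was noticed after its values were seen. It had signals of 2575 and 3195 in embryo proper, against 926 and 3174 in suspensor. The regions overlapped, and limma gave a log2 difference of 0.73 with an adjusted p of 0.5. The suspensor array with the highest ELIP signal thus had the lowest CPX signal.

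FTRC, the redox enzyme, was also higher on both suspensor arrays. Probe set Gma.2131.1.S1_at had signals of 886 and 1299 in embryo proper, against 2786 and 2472 in suspensor. The embryo proper arrays were just above background, at 1.01 and 1.49 times its level, and the suspensor arrays were at 3.01 and 2.39 times, without overlap. The means were 1092 ± 292 in embryo proper and 2629 ± 222 in suspensor (SD, n = 2 each), 2.42-fold higher in suspensor on that scale. Its log2 difference of -1.28 ranged from -1.64 to -0.92 between single arrays and from -1.55 to -1.01 when 1 array was left out. FTRC is the only gene of the 4 whose tested signal comes solely from a probe set with no shared-probe suffix.

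Of the 7 tested probe sets, 3 did not overlap between regions with embryo proper higher, where 33.4% of all tested probe sets did so, and 2 did not overlap with suspensor higher, where 19.8% did so. With 2 arrays per region, an exact two-sided permutation test of a single probe set cannot give a p below 0.333. The regions separated in 1 of the 2 tested PSAD probe sets, in 2 of the 3 of CAB3, and in the single ones of ELIP and FTRC. Replicates were farther apart in suspensor, where the median gap over all tested probe sets was 0.56 on the log2 scale, against 0.36 in embryo proper.

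Few other photosynthesis genes could be followed by symbol. The 10 lists written for photosystems, antenna, electron carriers, ATP synthase, carbon fixation, chlorophyll synthesis and their regulators matched 12 further genes with 17 probe sets that carry a single symbol, and 5 lists matched none. Only 2 of the 17 probe sets passed the background filter, both for enzymes of chlorophyll and haem synthesis, and limma called 0 of them in either direction, with 0 at an unadjusted p under 0.05. Placeholder symbols that begin with LOC, carried by 7001 of the 8677 soybean probe sets with a single symbol, could match no list. Probe sets with several symbols, 370 in all, were left out of the lists because no gene can be named from them. A symbol of 1 of these, GmaAffx.1301.40.S1_at, matches the carbon fixation pattern, which was looked up after its values were seen. It had signals of 56151 and 53461 in embryo proper, against 29865 and 24959 in suspensor, at 24.15 times background or more on each array. The regions did not overlap, and the 2.01-fold difference did not pass in limma (adjusted p = 0.13).

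GSA1, the enzyme that makes the precursor aminolevulinate, had signals of 11016 and 12535 in embryo proper by probe set GmaAffx.91779.1.S1_at, against 13231 and 13002 in suspensor. Its log2 difference was -0.16, with a 95% interval of -0.84 to 0.53 and an adjusted p of 0.79 in limma, and it was 0.01 with arrays centred on their Phytophthora and nematode signals. Both suspensor signals were above both embryo proper signals, by a difference that did not pass the test. HEMB, which joins aminolevulinate molecules into porphobilinogen, had signals of 10988 and 10781 in embryo proper, against 12502 and 8703 in suspensor. Its log2 difference was 0.06, with an interval of -0.69 to 0.81 and an adjusted p of 0.93 in limma, and its sign turned to -0.23 after quantile normalization and to -0.20 without suspensor replicate 2. For these probe sets the interval lay within 1 log2 unit of no difference. The other 2 GSA1 probe sets were not tested and also read higher in suspensor. Gma.1779.1.S1_at had signals of 283 and 418 in embryo proper, against 678 and 1361 in suspensor, with suspensor array 2 alone above background, for a bound of at least 1.1-fold. GmaAffx.91779.1.S1_s_at was below background on every array, at 249 and 66.8 in embryo proper, against 900.0 and 809 in suspensor.

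CHLH, the subunit of magnesium chelatase that commits the pathway to chlorophyll, was above background on 1 array alone, with embryo proper signals of 947 and 491, against suspensor signals of 214 and 415. RCA14, a Rubisco activase, was above background on suspensor array 1 alone by 1 of its 3 probe sets, at 1041. RCA11, FBP, ZEP, PETC, ATPC and HEMG were below background on every array. The pattern for carbon fixation also picked up SBP2 and SBP65, known as seed proteins outside that cycle, and these were below background too.

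The genes whose profile over the 4 arrays lay nearest to PSAD and CAB3 were taken by Euclidean distance between log2 values centred on their own mean. Only 421 tested probe sets were compared, those with a single symbol that is neither a LOC placeholder nor 1 of the 4 genes. Nearest to PSAD Gma.10852.1.S1_a_at were IQD18, at a distance of 0.78, PIP2-1, a plasma membrane aquaporin, at 0.82, the gene listed as G at 1.43, SUT1, a sucrose transporter, at 1.53, and COL10, a CONSTANS-like protein, at 1.78. All 5 were below background on both suspensor arrays, as PSAD was, so their distances rest in part on unmeasured values and no order among the 5 is read from them. SUT1 had signals of 1499.8 and 1883 in embryo proper, against 78.1 and 286 in suspensor, a bound of at least 1.71-fold.

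Nearest to CAB3 GmaAffx.1301.131.A1_x_at were VLXB, a lipoxygenase, at a distance of 0.34, GH1 at 0.43, AFB3B, an auxin receptor, at 0.55, the gene listed as G at 0.59 and SGF14f, a 14-3-3 protein, at 0.63. GH1 had signals of 1963 and 3041 in embryo proper, against 737 and 433 in suspensor, both below background, a bound of at least 2.47-fold. AFB3B and SGF14f stayed above background in suspensor, so their profiles are measured on all 4 arrays. These likenesses were found over 4 arrays of 2 regions, so they describe little beyond the region difference itself.

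**Figure D4:**
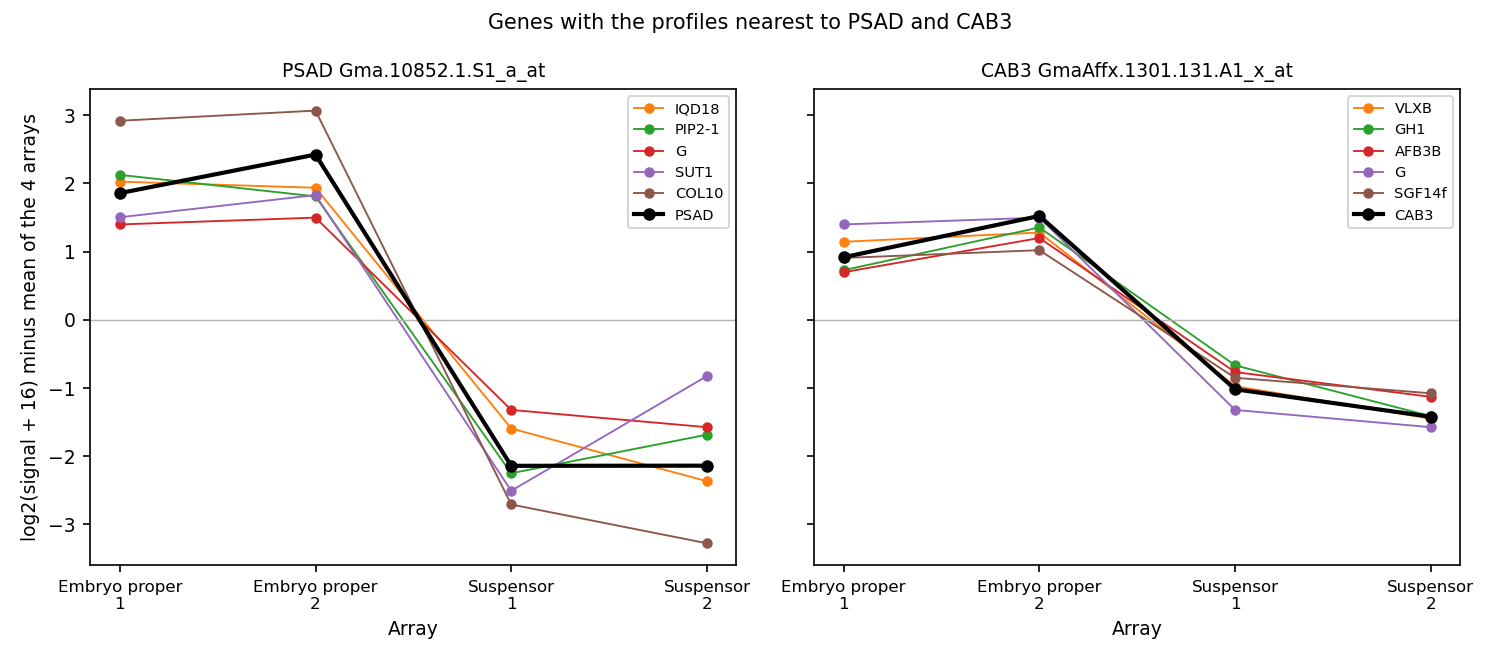
Profiles over the 4 arrays of PSAD (left) and CAB3 (right), in black, and of the 5 genes nearest to each, as log2(signal + 16) minus the mean of the 4 arrays; lines join the values of a gene. All genes shown are higher on the 2 embryo proper arrays, and the distances run from 0.78 to 1.78 for PSAD and from 0.34 to 0.63 for CAB3.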

How the data were processed

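Laser-cut embryo proper and suspensor RNA of scarlet runner bean was hybridised to Affymetrix soybean arrays, 2 per region, from 200 ng of cDNA each. Per the submitters' processing notes the authors used GCOS 1.3, and each deposited value is the linear intensity of 1 probe set; which summary method it ran is not given in the sources used here. Means trimmed by 2% at both ends came to 500.0 on every array, and no further scaling was applied.

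Soybean probe sets above the 95th percentile of the array's Phytophthora and nematode probe sets on at least 2 arrays were tested as log2(intensity + 16), embryo proper minus suspensor, with limma 3.58.1 (lmFit and eBayes with a variance trend, R 4.3.3) and Benjamini-Hochberg adjustment over all 8972 at 0.05. The fit was checked on simulated data with normal noise of the fitted spread, which meets its assumptions by design. For a bound, each dim array was given its own value or, if that was lower, the weakest soybean signal over its background level. Symbols came from the platform annotation; 0 of its gene identifiers were in the reference of 34063 bean genes, so no positions are given. The number of arrays limits the precision.

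Named were all probe sets of the 4 genes, the pathway lists' genes, and the 5 symbols nearest to each called probe set; probe sets sharing an identifier stem with a member, the probe set with several symbols and GA20OX3, a marker, stand outside that rule. Members and lists were chosen with earlier results of these data known. Same-numbered arrays deviated with a correlation of -0.024 over 8972 probe sets, and the labels give a number no meaning beyond the replicate, so the main fit has no pairing.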

Additional observations from a re-analysis of the deposited data

How the results depend on the processing

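Probe sets called higher in embryo proper and in suspensor, 167 and 80 as reported, became 334 and 192 when all 4 arrays had to be above background, 293 and 134 under the 99th percentile as background level, 71 and 35 without shared probes, 66 and 21 without a variance trend, 237 and 195 under quantile normalization, 154 and 48 under centring on Phytophthora and nematode signals, and 292 and 138 with the replicate block. The filters tested fewer probe sets, and the cause of the changes was not tested for any setting. Quantile normalization and centring moved the median log2 difference of all tested probe sets, 0.18, to 0.09 and 0.35. Leaving out 1 array gave 3 to 1054 and 3 to 153, with the lone array assumed to vary like the other region.

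The counts for PSAD, CAB3, ELIP and FTRC are descriptions, since the genes were chosen on this contrast. Of their probe sets, the 2 called higher in embryo proper became 0 when all 4 arrays had to be above background and 0 when shared probes were dropped, since neither was then tested. They became 1 without a variance trend, and leaving out 1 array gave 0 to 2, with PSAD alone called without embryo proper replicate 1 and neither without embryo proper replicate 2. The 0 called higher in suspensor became 2, ELIP and FTRC, when all 4 arrays had to be above background, and leaving out 1 array gave 0 to 1, the 1 being ELIP without suspensor replicate 2. Setting the suspensor array below background to its weakest soybean signal above it, chosen after seeing the data, moved the CAB3 difference of 2.44 to 2.25. The replicate block changed no call among them or among GSA1 and HEMB. Signs turned for GSA1, to 0.01 under centring, and for HEMB, to -0.23 under quantile normalization. Leaving out 1 array gave -0.20 to 0.32 for HEMB and -0.82 to 0.08 for PSAD GmaAffx.5376.4.S1_at, the 0.08 without embryo proper replicate 2. Pseudocounts of 1 and 64 and no filter on dim probe sets changed none of these counts by over 1.5 times. Signal over background limits the rest: 5 of the 12 probe sets were below it on every array.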
